A study of Mus musculus with 24 samples.

Results

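The immediate early and dissociation stress genes described here are 10 genes, namely Fos, Fosb, Jun, Junb, Egr1, Atf3, Ier2, Dusp1, Hspa1a and Hspa1b. They were taken by their symbols from a deposited table of 16996 genes, and all 10 were found in it. The rule names the genes and uses no measured value, but the set was put together with earlier results of these data known. The table gave log2 normalized values for CD45+ cells enriched from EMT6-hHER2 tumors of 24 mice.

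EMT6-hHER2 is a murine breast cancer line that expresses human HER2 and was grown from a single sorted cell, so that it is 1 clone. Wild-type female BALB/c mice were given these cells in the mammary gland, and all 4 groups of 6 mice carried such tumors. At a tumor volume of 80 mm3, mice were left untreated or received a single intravenous dose of an agent, which was trastuzumab at 20 mg/kg, T-DM1 at 15 mg/kg or T-PNU at 1 mg/kg. Trastuzumab is an antibody against HER2, T-DM1 is trastuzumab joined to the microtubule inhibitor DM1, and T-PNU is trastuzumab joined to the anthracycline derivative PNU-159682. Doses differed between the agents, so every comparison between them is of an agent at its own dose. Tumors were removed on day 10 after treatment from mice aged 10 to 12 weeks. They were digested with accutase, collagenase, hyaluronidase and deoxyribonuclease before cells were enriched on magnetic beads. The paper states that T-PNU tumors were by then smaller than at treatment, and gives no separate harvest volume for the other groups. Tumor size at digestion may therefore differ between groups, and its part was not tested.

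Immediate early genes are transcribed within minutes of a stimulus without the need for new protein. Growth factors, receptor signals, stress and the enzymatic digestion of a tissue all switch them on, through kinases of the MAPK family and the factors SRF, ELK and CREB. Fos, Fosb, Jun and Junb encode subunits of the dimeric transcription factor AP-1, Egr1 encodes a zinc finger factor, Atf3 encodes a stress-induced factor of the bZIP family, and Ier2 encodes a further early nuclear protein. Dusp1 encodes a phosphatase that switches MAP kinases off again. Hspa1a and Hspa1b encode the inducible chaperone HSP70 and are switched on by the heat shock factor HSF1. In dissociated tissue this set of genes is widely read as a mark of handling, which is why the order of the mice was examined beside the groups.

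Promoters are shown because such genes are known to respond through elements near their start. Of the 10 genes, 8 had an entry in the RefSeq promoter table (build GRCm38.p6) and are shown, and Egr1 and Ier2 had none. The 250 bases before the start were searched on both strands for the CRE core TGACG (bound by factors of the CREB and ATF family), the full CRE TGACGTCA, which overlaps it, the AP-1 site TGANTCA, the CArG box bound by SRF, and the heat shock element GAANNTTC. The core was found in 5 of the 8 promoters (Fos, Fosb, Junb, Atf3 and Dusp1), against 17.8% of all 32851 promoters of this length. The full CRE was found in Dusp1 alone of the 8, against 1.55% of all promoters. The heat shock element was found in 3 of them (Jun, Hspa1a and Hspa1b), against 6.69%. The AP-1 site (6.75% of all promoters) and the CArG box (1.47%) were not found in these windows. Capitals mark the matches below, which are matches of letters and not measured sites.
Fos, chr12:85473640-85473889, plus strand: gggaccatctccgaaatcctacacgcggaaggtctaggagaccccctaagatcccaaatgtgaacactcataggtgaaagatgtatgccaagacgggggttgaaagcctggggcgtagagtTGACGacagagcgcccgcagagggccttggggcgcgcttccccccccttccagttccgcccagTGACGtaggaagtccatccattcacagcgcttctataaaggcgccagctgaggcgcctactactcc
Fosb, chr7:19310046-19310295, minus strand: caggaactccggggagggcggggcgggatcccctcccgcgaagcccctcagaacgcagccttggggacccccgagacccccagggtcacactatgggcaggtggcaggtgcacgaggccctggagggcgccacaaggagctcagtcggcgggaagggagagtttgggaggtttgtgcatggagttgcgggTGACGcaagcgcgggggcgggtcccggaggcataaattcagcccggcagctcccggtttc
Jun, chr4:95052223-95052472, minus strand: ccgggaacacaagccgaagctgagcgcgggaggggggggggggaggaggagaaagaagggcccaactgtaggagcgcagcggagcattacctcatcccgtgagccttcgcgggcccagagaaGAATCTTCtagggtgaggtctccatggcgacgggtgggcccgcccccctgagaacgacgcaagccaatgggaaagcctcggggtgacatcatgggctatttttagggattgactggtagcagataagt
Junb, chr8:84978749-84978998, minus strand: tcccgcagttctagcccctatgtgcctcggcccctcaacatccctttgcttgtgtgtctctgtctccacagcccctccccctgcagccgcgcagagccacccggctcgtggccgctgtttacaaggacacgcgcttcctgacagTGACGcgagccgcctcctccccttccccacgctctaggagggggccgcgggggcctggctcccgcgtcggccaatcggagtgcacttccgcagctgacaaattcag
Atf3, chr1:191183334-191183583, minus strand: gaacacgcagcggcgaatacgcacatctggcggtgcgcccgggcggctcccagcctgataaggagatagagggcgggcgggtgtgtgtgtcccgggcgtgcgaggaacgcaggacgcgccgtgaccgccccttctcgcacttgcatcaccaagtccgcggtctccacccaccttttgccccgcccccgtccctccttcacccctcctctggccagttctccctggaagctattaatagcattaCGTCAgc
Dusp1, chr17:26508473-26508722, minus strand: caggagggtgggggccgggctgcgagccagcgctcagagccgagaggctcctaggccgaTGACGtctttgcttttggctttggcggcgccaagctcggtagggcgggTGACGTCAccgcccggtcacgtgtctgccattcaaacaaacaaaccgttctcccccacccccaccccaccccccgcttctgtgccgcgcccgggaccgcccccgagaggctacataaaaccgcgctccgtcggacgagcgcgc
Hspa1a, chr17:34972157-34972406, minus strand: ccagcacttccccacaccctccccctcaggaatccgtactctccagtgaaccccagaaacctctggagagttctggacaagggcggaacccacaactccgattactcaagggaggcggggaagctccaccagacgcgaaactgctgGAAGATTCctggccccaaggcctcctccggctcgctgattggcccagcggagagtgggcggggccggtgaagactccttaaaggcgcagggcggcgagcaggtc
Hspa1b, chr17:34959239-34959488, minus strand: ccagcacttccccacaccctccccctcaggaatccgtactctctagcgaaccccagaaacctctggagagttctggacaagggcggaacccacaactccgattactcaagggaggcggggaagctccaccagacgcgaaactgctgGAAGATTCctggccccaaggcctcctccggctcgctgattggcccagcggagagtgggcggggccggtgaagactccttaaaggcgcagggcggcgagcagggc
The Hspa1a and Hspa1b windows differ at 3 of 250 bases (98.8% identical).

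The transcripts of these 2 genes share sequence too. Of all stretches of 81 bases, the read length, in the annotated Hspa1a transcript, 52.9% occurred unchanged in a transcript of another gene (Hspa1b or Hspa1l), and for Hspa1b the share was 54.4%. How reads that matched both genes were counted is not given in the sources used here. The separate values of Hspa1a and Hspa1b are therefore uncertain. The other 8 genes shared no such stretch with any other annotated gene.

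In the GENCODE M21 annotation of GRCm38, the same assembly as the mm10 build named in the submitters' processing notes, Fos (ENSMUSG00000021250) lies on chromosome 12 at 85473890 to 85477273 and Fosb (ENSMUSG00000003545) on chromosome 7 at 19302696 to 19310051. Jun (ENSMUSG00000052684) lies on chromosome 4 at 95049034 to 95052222 and overlaps the antisense gene Junos. Junb (ENSMUSG00000052837) at 84974484 to 84978718 and Ier2 (ENSMUSG00000053560) at 84661331 to 84662852 both lie on chromosome 8, with 311631 bases between them. Atf3 (ENSMUSG00000026628) lies on chromosome 1 at 191170296 to 191218039. Dusp1 (ENSMUSG00000024190) at 26505590 to 26562128, Hspa1b (ENSMUSG00000090877) at 34956436 to 34959238 and Hspa1a (ENSMUSG00000091971) at 34969190 to 34972156 lie on chromosome 17. Junb, Dusp1, Atf3 and Hspa1a also overlap genes of the opposite strand, and reads were counted by strand. Dusp1 further overlaps 2 genes of its own strand, a processed pseudogene and a sense intronic gene, which counting by strand does not separate, so that its values are uncertain to that extent.

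Across all genes, sample medians lay between 8.73 and 8.87 on the log2 scale, and since the table holds no read counts, depth is unknown for every value here. CD45 itself (Ptprc) lay between 14.01 and 15.52 in all libraries, and was higher in T-PNU than in T-DM1 mice, as given below. Transcripts of other cells were also present: the keratin Krt8 lay between 11.69 and 13.77, the collagen gene Col1a1 between 11.49 and 14.46, and none of the 10 tumor and stroma markers was near the lowest value of the table (1.13). In bulk RNA, fewer cells of a type and less RNA per cell cannot be told apart. The library names give a position code (A1 to H3) and a mouse number. Only 20 of the 24 libraries carry a label in the study's displays. The remaining 4 are B1 and C1 of the untreated mice and E2 and B3 of those given trastuzumab. Results are given for all 24, and beside them the calls that differed among the 20.

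The first question was whether the 10 genes differed between any of the groups. In a fit over all genes and all 24 mice (limma, Benjamini-Hochberg adjusted p under 0.05), 3 of the 10 did: Fos (adjusted p = 0.0186), Fosb (0.0347) and Jun (0.0352), where 18.8% of all genes passed. Junb (0.0565), Dusp1 (0.0763) and Atf3 (0.0964) came next, and Egr1, Ier2, Hspa1a and Hspa1b had values between 0.162 and 0.363. Among the 20 libraries 6 passed (Fos, Fosb, Jun, Junb, Atf3 and Dusp1), where 40.8% of all genes did. The share of the 10 that passed is thus given beside a background that is itself large.

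**Figure D1:**
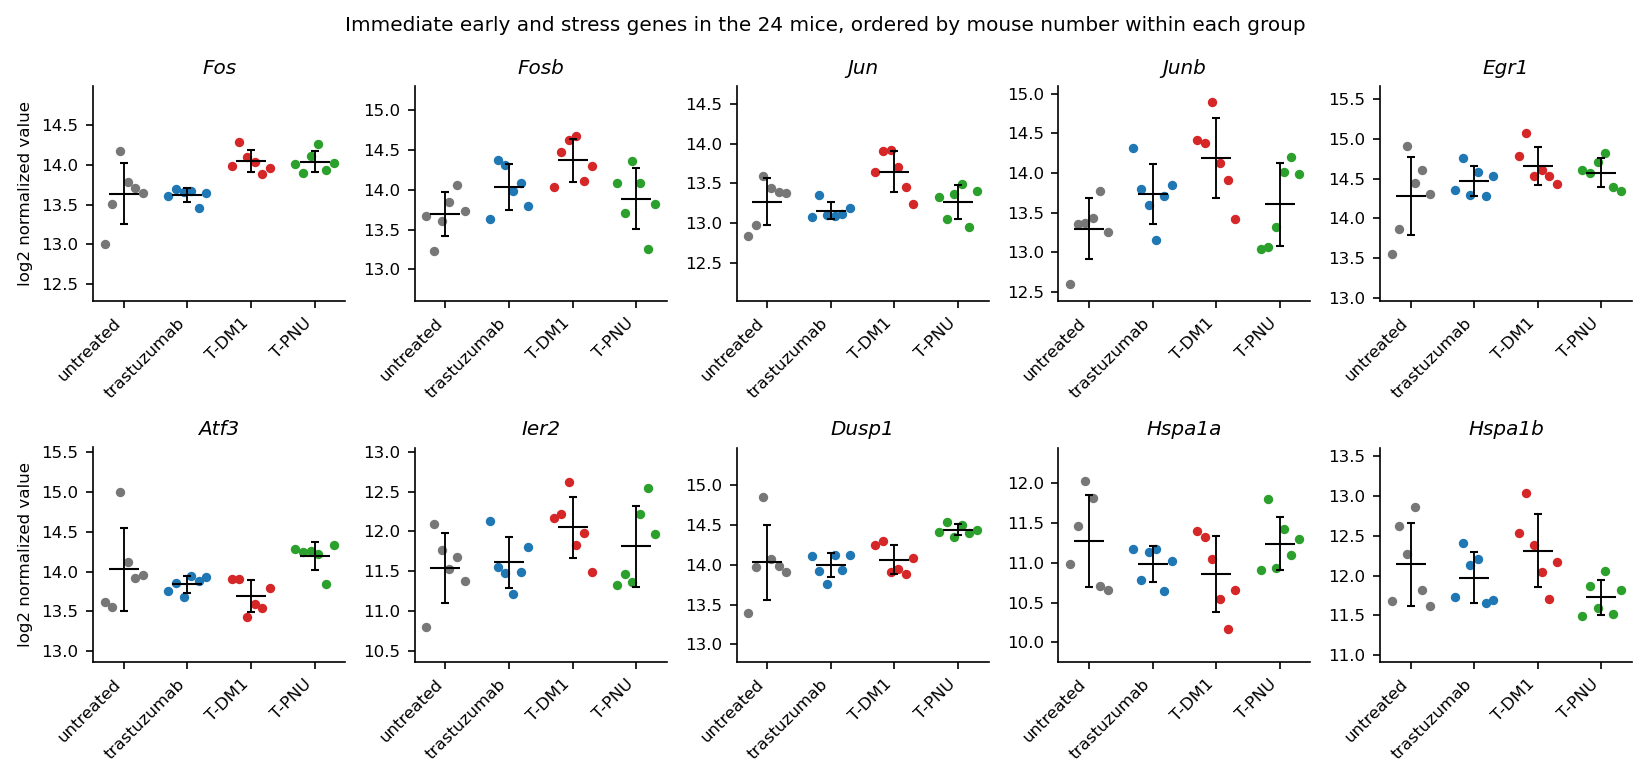
Log2 normalized value (y axis) of each gene in each of the 24 mice, with mice ordered by their number within each group (x axis) and the black bars giving the mean and SD of 6 mice. Untreated mice spread over 1.17 log2 units for Fos and 1.44 for Atf3, and Fos in T-DM1 and T-PNU mice lay above all trastuzumab mice.

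Among the AP-1 subunits, Fos had lower means in untreated and trastuzumab mice and higher means in T-DM1 and T-PNU mice. In the limma fit over all mice, only T-DM1 against untreated mice passed for Fos (adjusted p = 0.0490). T-PNU against untreated mice (0.0770) did not, nor did T-DM1 (0.109) or T-PNU (0.148) against trastuzumab mice. In trastuzumab mice Fos ran from 13.46 through a median of 13.65 to 13.70, and in T-DM1 mice from 13.88 through 14.02 to 14.28. In T-PNU mice it ran from 13.90 through 14.02 to 14.26. All T-DM1 and all T-PNU mice therefore lay above all trastuzumab mice. How many of all genes separate these groups in the same way was not counted. Untreated mice spanned 13.00 to 14.17 (median 13.68) and overlapped every group. The means of T-DM1 (14.04 ± 0.14, SD, n = 6) and T-PNU (14.04 ± 0.13) differed by 0.00 (SE 0.12). Likewise trastuzumab (13.62 ± 0.08) and untreated (13.64 ± 0.38) differed by less than their spread.

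Fosb followed another order. It was highest in T-DM1 mice (14.03 to 14.68, median 14.39), followed by trastuzumab (13.63 to 14.38, median 14.04), T-PNU (13.26 to 14.36, median 13.95) and untreated mice (13.24 to 14.07, median 13.71). Neighbors in this order overlapped, and T-DM1 and untreated mice overlapped only through T-DM1 C3 and untreated E1. The order of the medians for Jun was T-DM1 (13.67), untreated (13.38), T-PNU (13.35) and trastuzumab (13.11). In trastuzumab mice 5 values lay close together for Jun, between 13.07 and 13.19, with F2 above them at 13.36.

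Junb varied most within groups. It ran from 12.60 to 13.77 in untreated mice (median 13.36), from 13.16 to 14.32 in trastuzumab mice (median 13.75), from 13.42 to 14.89 in T-DM1 mice (median 14.26) and from 13.04 to 14.20 in T-PNU mice (median 13.66). Every pair of groups overlapped. Its within-group SD was 0.45, larger than that of 93.8% of the genes above the table's median level, whose median SD was 0.19. Ier2 (0.42), Hspa1a (0.43) and Hspa1b (0.40) had a larger SD than between 90.0% and 92.3% of those genes.

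Fos, Fosb and Junb rose in T-DM1 mice against untreated mice. The fold was 1.33 for Fos (log2 0.41, SE 0.12, adjusted p = 0.0490 by limma), 1.60 for Fosb (log2 0.68, SE 0.17, adjusted p = 0.0217) and 1.86 for Junb (log2 0.89, SE 0.25, adjusted p = 0.0331). These 3 of 10 compare with 6.27% of all genes called in this comparison and 4.11% called higher. The median log2 difference over the 10 genes was 0.38, with 8 higher and 2 lower, and the median over all genes was -0.02. Jun (log2 0.38, adjusted p = 0.0744), Ier2 (0.51, 0.171) and Egr1 (0.38, 0.174) did not pass. Atf3 (log2 -0.33, adjusted p = 0.225) and Hspa1a (-0.42, 0.286) had values of the other sign and did not pass either.

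These 3 calls lay near the threshold. Without any 1 of the 24 mice Fos ran between an adjusted p of 0.0154 (without untreated C1) and 0.122 (without T-DM1 D3), and it passed in 5 of 24 such fits. Fosb lost its call without T-DM1 D3, E3 or F3 (0.0548 to 0.0627), and Junb without any of untreated A1, C1 and F1 and T-DM1 C3, D3, E3 and F3 (0.0560 to 0.0958), while Jun gained one without T-DM1 H3 (0.0265). Among the 20 libraries Fos alone passed (log2 0.51, adjusted p = 0.0365), where 2.01% of all genes did, and Fosb (0.1001) and Junb (0.0860) did not.

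Markers of other cells moved with the same comparison. The level of the 10 tumor and stroma markers together, given as the mean log2 deviation from each gene's mean, lay between 0.30 and 0.64 in T-DM1 mice, above every untreated mouse (-0.80 to 0.17), every trastuzumab mouse (-0.22 to 0.29) and every T-PNU mouse (-1.20 to 0.04). Of its 10 genes, 3 rose in T-DM1 against untreated mice (Col1a1, Col3a1 and Dcn, which encode collagens and a collagen-binding proteoglycan), and among the 20 libraries Dcn alone did. The level of the 10 macrophage markers lay between -0.63 and -0.09 in T-DM1 mice and between -0.96 and 0.76 in untreated mice, and 1 of its genes, C1qb of the complement system, fell, with 4 falling among the 20 libraries. The part of these markers in the differences of Fos, Fosb and Junb was not tested.

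Against trastuzumab, none of the 10 genes passed in T-DM1 mice (limma, 0.647% of all genes called), and 2 of them had an unadjusted p under 0.05. These were Jun (log2 0.49, SE 0.13, adjusted p = 0.0714) and Fos (log2 0.42, SE 0.12, adjusted p = 0.109). Fosb (log2 0.34, adjusted p = 0.343), Junb (0.46, 0.378) and Ier2 (0.44, 0.355) had positive differences that did not pass. Jun passed without untreated B1 or C1 or T-DM1 H3 (0.0362 to 0.0486), and Fos without untreated A1 or C1 (0.0328 to 0.0347). Untreated mice are not in this comparison, so leaving them out changed only the shared variance and the adjustment. With the T-DM1 and trastuzumab groups alone in the limma fit, Jun (adjusted p = 0.0358) and Fos (0.0158) passed. Among the 20 libraries none passed, where 0.812% of all genes did.

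**Figure D2:**
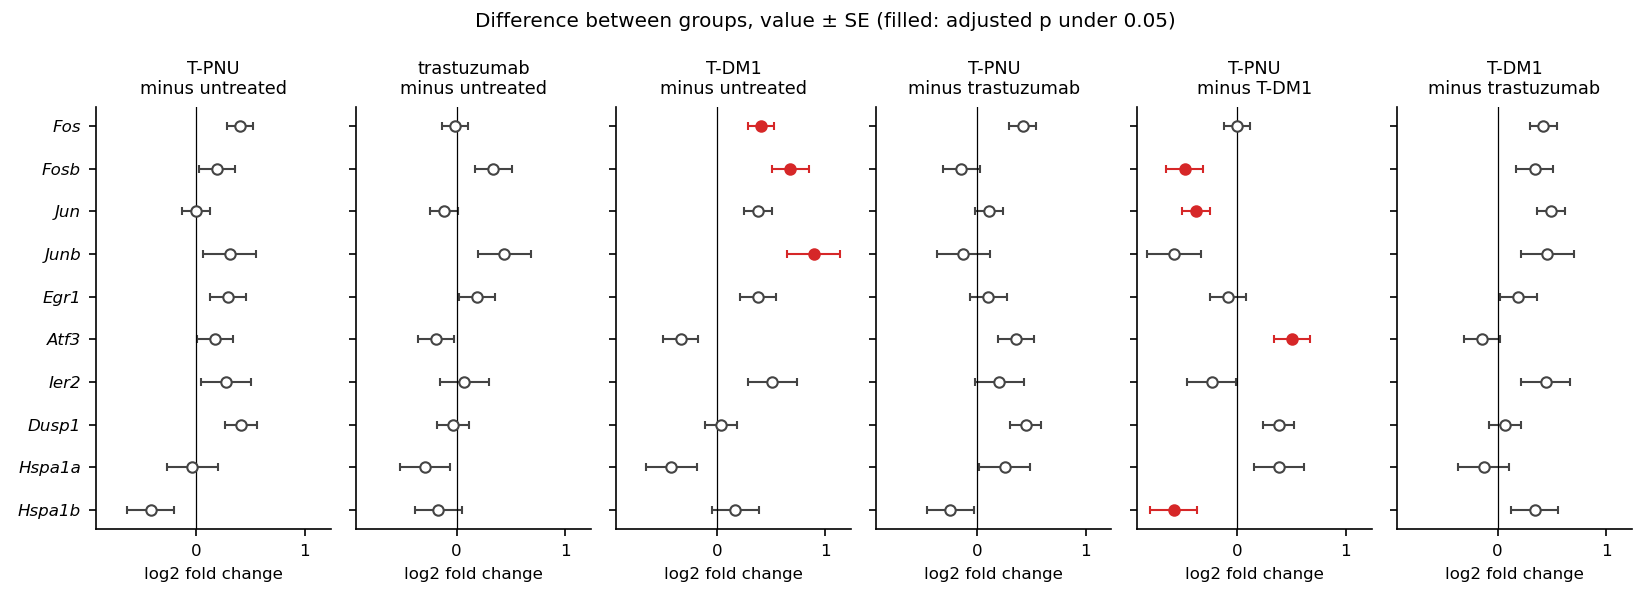
Log2 fold change (x axis) of each of the 10 genes (rows) in the 6 comparisons between groups (panels), with bars of 1 SE from the fit over all genes. Filled points passed an adjusted p of 0.05: Fos, Fosb and Junb in T-DM1 minus untreated, and Fosb, Jun, Atf3 and Hspa1b in T-PNU minus T-DM1.

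T-PNU and T-DM1, which carry different payloads on the same antibody, differed at 4 of the 10 genes. Fosb (log2 -0.49, SE 0.17, adjusted p = 0.0350), Jun (log2 -0.38, SE 0.13, adjusted p = 0.0300) and Hspa1b (log2 -0.59, SE 0.22, adjusted p = 0.0435) were lower in T-PNU mice, and Atf3 was higher (log2 0.50, fold 1.42, SE 0.16, adjusted p = 0.0257). In this comparison 29.8% of all genes passed, 17.4% lower and 12.4% higher, so that 4 of 10 lies near the background. The median over the 10 genes was -0.16 and over all genes 0.03. Doses differed between these agents (1 and 15 mg/kg). Hspa1a did not pass and had the opposite order to Hspa1b, with means of 11.24 in T-PNU and 10.86 in T-DM1 mice. The mean deviation of both HSP70 genes together was -0.08 in T-PNU and 0.02 in T-DM1 mice. Since these genes share transcript sequence, the call of Hspa1b does not stand for HSP70 as a whole.

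Atf3 and Dusp1 had their highest median in T-PNU mice, as did Fos and Egr1, whose medians in T-DM1 mice were close to it. Atf3 ran from 13.84 through 14.26 to 14.33 in T-PNU mice, from 13.42 through 13.69 to 13.91 in T-DM1 mice and from 13.68 through 13.87 to 13.95 in trastuzumab mice. The groups of T-PNU and T-DM1 overlapped only through T-PNU C2. Dusp1 ran from 14.35 through 14.43 to 14.54 in T-PNU mice, and all 6 lay above every T-DM1 mouse (13.89 to 14.31) and every trastuzumab mouse (13.76 to 14.13). The share of all genes that separate in this way was not counted. The SD of Dusp1 was 0.07 in T-PNU mice and 0.47 in untreated mice, which ran from 13.40 through 13.97 to 14.85. Dusp1 did not pass between T-PNU and T-DM1 over 24 mice (log2 0.38, SE 0.15, adjusted p = 0.0545), and passed among the 20 libraries (0.00721).

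Leaving out single mice changed these calls too. Atf3 lost its call without T-PNU H1 or T-DM1 E3, F3 or G3 (0.0517 to 0.0574). Fosb lost it without T-PNU H1, C2 or D2 or T-DM1 D3, E3 or F3 (0.0570 to 0.103), and Jun without T-PNU H1 or C2 or T-DM1 D3, E3 or F3 (0.0593 to 0.0800). Hspa1b lost it without any of 8 mice, namely T-PNU G1, H1, A2, C2 and D2 and T-DM1 C3, D3 and E3 (0.0546 to 0.121). Junb (log2 -0.58, adjusted p = 0.0729) gained a call without T-PNU C2 or T-DM1 H3 (0.0261 to 0.0455), and Dusp1 without T-DM1 C3 or D3 (0.0488 to 0.0491). Dusp1 also gained one without untreated A1 (0.0268) or C1 (0.00733), which are not in this comparison. Its log2 difference stayed at 0.38 there, so only the shared variance and the adjustment changed. With the T-PNU and T-DM1 groups alone in the limma fit, Dusp1 passed (adjusted p = 0.00632). Among the 20 libraries 5 of the 10 passed (Fosb, Jun, Atf3, Dusp1 and Hspa1b), where 39.9% of all genes did.

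Cell type markers differed widely between T-PNU and T-DM1 mice. Ptprc, the gene of CD45 on which the cells were enriched, was itself higher in T-PNU mice. Of the 10 tumor and stroma markers 8 fell and 1, Epcam, rose in T-PNU mice, and of the 10 macrophage markers 6 rose (among them Adgre1, log2 0.86). All 5 NK cell markers rose as well, with a median log2 difference of 0.71. None of the 10 T cell markers passed over 24 mice, and 4 rose among the 20 libraries. The level of the NK list lay between 0.03 and 0.71 in T-PNU mice and between -0.51 and -0.03 in T-DM1 mice. The part of these markers in the differences of Atf3, Dusp1, Fosb, Jun and Hspa1b was not tested.

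Against untreated mice, none of the 10 genes passed in T-PNU mice over 24 mice (limma, 0.188% of all genes called). At an unadjusted p under 0.05 there were 2, Fos (log2 0.40, SE 0.12, adjusted p = 0.0770) and Dusp1 (log2 0.41, SE 0.15, adjusted p = 0.103). Hspa1b (log2 -0.42, adjusted p = 0.229) and Egr1 (log2 0.29, adjusted p = 0.272) did not pass. This comparison turned on untreated C1: without that mouse Fos (adjusted p = 0.00620), Dusp1 (0.00339) and Atf3 (log2 0.37, 0.0282) passed. The share of all genes called without C1 is not given here, so these calls have no background beside them. Fos and Dusp1 also passed among the 20 libraries, which leave out C1, with a log2 difference of 0.50 for Fos (0.00768) and 0.60 for Dusp1 (0.00325), where 31.1% of all genes passed.

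Against trastuzumab, none of the 10 passed in T-PNU mice over 24 mice (limma, 0.00588% of all genes called, that is 1 gene), and 3 had an unadjusted p under 0.05. These were Fos (log2 0.42, adjusted p = 0.148), Dusp1 (0.45, 0.169) and Atf3 (0.36, 0.240). For Fos and Dusp1 no T-PNU mouse overlapped a trastuzumab mouse. The share of all genes without overlap in this comparison was not counted, so this has no background beside it. Among the 20 libraries all 3 passed (0.0207 for Fos, 0.00918 for Dusp1 and 0.0298 for Atf3), where 28% of all genes did. Without untreated C1 alone, Dusp1 passed (0.0484) at an unchanged log2 difference of 0.45, since C1 is not in this comparison. The share of all genes called without C1 is not given here either.

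Trastuzumab and untreated mice were not told apart by any of the 10 genes. None passed over 24 mice (limma, 0.259% of all genes called) or among the 20 libraries (0% called, with 865 genes at an unadjusted p under 0.05), and none of the 10 had an unadjusted p under 0.05 over 24 mice. The largest differences were 0.44 for Junb (adjusted p = 0.670) and 0.34 for Fosb (0.597). The median over the 10 genes was -0.02, and over all genes -0.01.

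Egr1 (ENSMUSG00000038418, chromosome 18 at 34859823 to 34864984 in GRCm38) had close medians in the 3 treated groups. These were 14.45 in trastuzumab mice (14.29 to 14.75), 14.57 in T-DM1 mice (14.43 to 15.08) and 14.59 in T-PNU mice (14.34 to 14.83). Untreated mice ran from 13.55 (A1) through 14.38 to 14.91 (C1) and held both A1 and B1 below every treated mouse. Ier2 ran from 10.80 through 11.60 to 12.10 in untreated mice, from 11.21 through 11.52 to 12.13 with trastuzumab, from 11.49 through 12.08 to 12.62 with T-DM1 and from 11.32 through 11.71 to 12.55 with T-PNU. Every pair of groups overlapped for Ier2.

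The 2 HSP70 genes stood in different orders. Hspa1a had its lowest median in T-DM1 mice, where it ran from 10.17 through 10.85 to 11.41. It ran from 10.65 through 11.23 to 12.04 in untreated mice, from 10.64 through 11.08 to 11.18 with trastuzumab and from 10.91 through 11.20 to 11.80 with T-PNU. Hspa1b had its highest median in T-DM1 mice, where it ran from 11.71 through 12.28 to 13.03. In T-PNU mice Hspa1b ran from 11.49 through 11.71 to 12.06, in trastuzumab mice from 11.65 through 11.94 to 12.42 and in untreated mice from 11.62 through 12.04 to 12.86. All groups overlapped for both genes, and the shared transcript sequence limits how far the 2 values can be separated.

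Over the 10 genes together, mice varied most in the untreated group. Untreated A1 was the lowest of its group for 6 of the 10 genes (Fos, Jun, Junb, Egr1, Ier2 and Dusp1), and C1 was the highest for 6 (Fos, Jun, Egr1, Atf3, Dusp1 and Hspa1a). The mean deviation over the 10 genes ran from -0.62 in A1 to 0.32 in C1 (SD 0.32). In T-DM1 mice it ran from -0.11 to 0.46 in D3, the highest of all 24 (SD 0.23), in T-PNU mice from -0.08 to 0.28 (SD 0.13) and in trastuzumab mice from -0.21 to 0.02 (SD 0.08). Marker levels moved with these mice: A1 was lowest of its group for the T cell (-1.53), NK (-0.73) and B cell (-2.36) lists, and C1 was highest for the NK (0.76), neutrophil (0.64) and macrophage (0.76) lists. The part of these markers in the levels of A1 and C1 was not tested. A single spread was fitted for all groups, whereas Fos had an SD of 0.38 in untreated and 0.08 in trastuzumab mice.

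The order of the mouse numbers was examined as a possible mark of handling. Numbers ran from 288 to 293 in untreated mice and from 500 upward in treated mice, with consecutive numbers in each group, so number and treatment cannot be told apart between groups. Within groups the order of the numbers equals that of the position codes. With a slope shared by all groups, no member passed along this order (limma, adjusted p of 1.00 for each). Of all genes 0% were called, with 87 genes but none of the 10 at an unadjusted p under 0.05. The 8 genes other than HSP70 had shared slopes between 0.00 and 0.02 log2 units per mouse, with SE of 0.03 to 0.05. Within single groups their slopes differed in sign. In untreated mice all 8 were positive, from 0.04 (Ier2) to 0.16 (Egr1). In T-DM1 mice they ran from -0.20 (Junb) to 0.01 (Fosb), and all but that of Fosb were negative. They had mixed signs in trastuzumab (-0.09 to 0.03) and T-PNU mice (-0.08 to 0.25). These slopes within single groups were not tested.

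Hspa1a (slope -0.09 log2 units per mouse, SE 0.05) and Hspa1b (-0.07, SE 0.04) had the largest shared slopes of the 10. In T-DM1 mice Hspa1a was 11.41, 11.32, 11.04, 10.55, 10.17 and 10.66 from the lowest to the highest number. In T-PNU mice it was 10.91, 11.80, 10.94, 11.42, 11.10 and 11.30, with no such order. Slopes within single groups were -0.22 for T-DM1, -0.12 for untreated, -0.03 for trastuzumab and 0.01 for T-PNU. For Junb the signs within groups were mixed as well, at 0.25 in T-PNU and -0.20 in T-DM1 mice. With the 18 treated mice alone, a choice made after seeing the data, no member passed and the slope of Hspa1a was -0.08 (SE 0.04).

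Within groups some pairs of the genes varied together. With group means removed, 10 of the 45 pairs passed over 24 mice (permutation test within groups with 100000 resamples, two-sided, Benjamini-Hochberg over the 45 pairs), all with a positive r. The closest pair was Junb and Ier2 (Pearson r = 0.90, Spearman rho = 0.90, permutation p = 1e-05 for both, the smallest that 100000 resamples can give, adjusted p = 0.000225). Without the 2 mice farthest from the median of Junb, r was 0.87. Neither gene had a relation to Atf3 that passed (r = -0.06 for Junb and -0.09 for Ier2).

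Fos, Jun and Egr1 were related to each other. They are not a set apart, since pairs of Egr1 and Jun with other members passed too, as given below. Fos and Egr1 had r = 0.88 (rho 0.80, permutation p = 4e-05, adjusted 0.000600), Fos and Jun r = 0.80 (rho 0.84, p = 1e-05, adjusted 0.000225) and Jun and Egr1 r = 0.77 (rho 0.70, p = 0.000150, adjusted 0.00169). Without the 2 farthest mice these were 0.74, 0.78 and 0.69. Atf3 and Dusp1 formed a further pair (r = 0.85, rho 0.76, permutation p = 0.000220, adjusted 0.00198, and 0.77 without the 2 farthest mice). Hspa1a and Hspa1b had r = 0.75 (rho 0.76, permutation p = 0.000760, adjusted 0.00570), a value that their shared sequence also enters.

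Some relations rested on a few mice. Fos and Dusp1 had r = 0.79 but rho = 0.33, r fell to 0.26 without the 2 farthest mice, and the adjusted permutation p was 0.0539. Egr1 and Dusp1 passed (r = 0.75, rho 0.50, permutation p = 0.00235, adjusted 0.0140), with r = 0.43 without the 2 farthest mice. Egr1 and Atf3 (r = 0.74, rho 0.51, permutation p = 0.00249, adjusted 0.0140) had r = 0.56 without them. The others that passed were Dusp1 with Hspa1a (r = 0.63, rho 0.66, permutation p = 0.00322, adjusted 0.0161) and Fosb with Jun (r = 0.56, rho 0.55, permutation p = 0.00646, adjusted 0.0291). Of these 10 pairs, 8 passed among the 20 libraries, and no other pair did. Dusp1 with Hspa1a (r = 0.48, adjusted permutation p = 0.182) and Egr1 with Atf3 (r = 0.60, adjusted permutation p = 0.0693) did not.

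**Figure D3:**
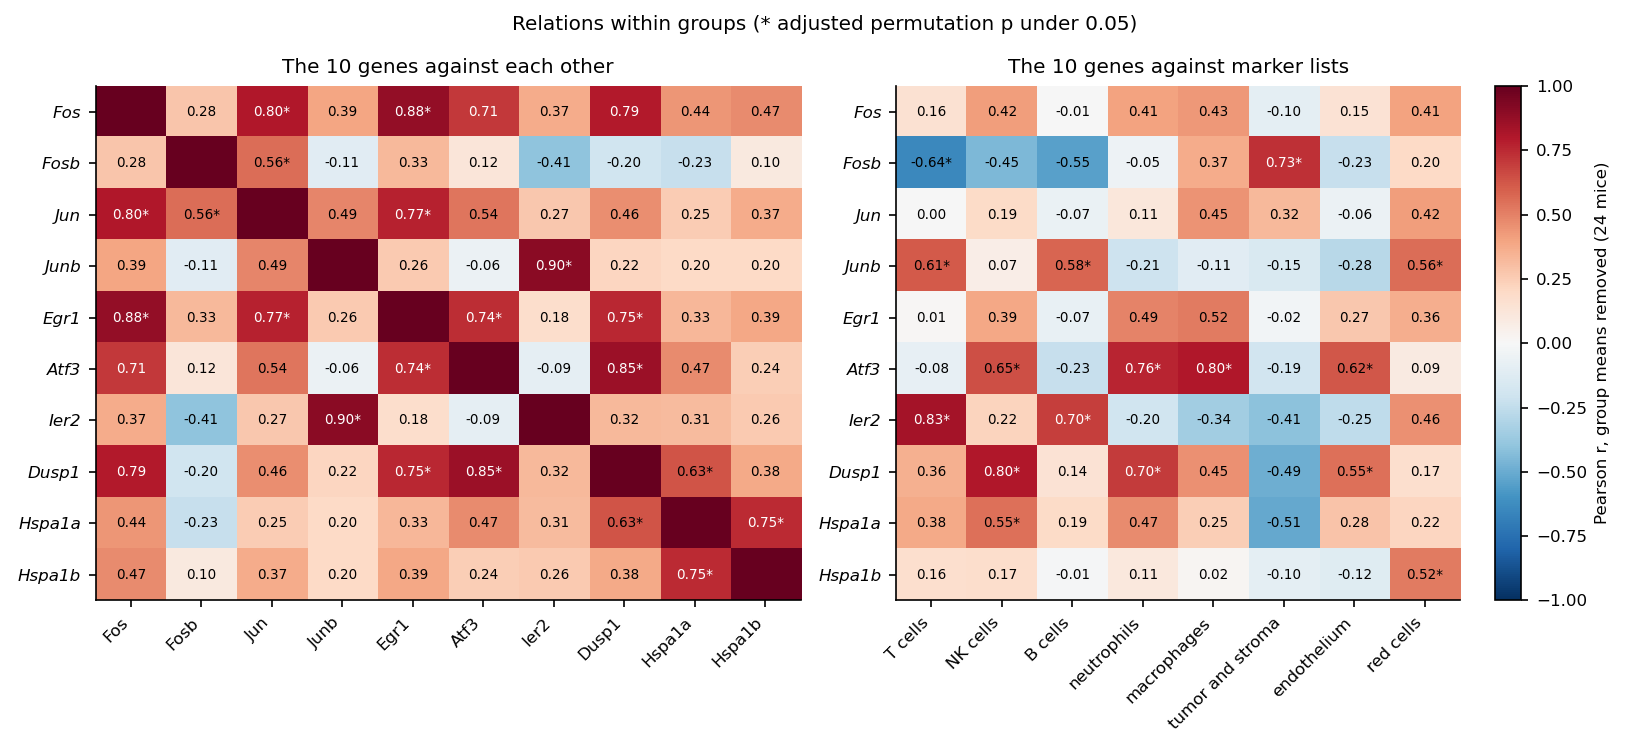
Pearson r over 24 mice after removal of group means, between the 10 genes (left, rows and columns) and between the 10 genes and 8 marker lists (right), with colors from -1 to 1. Stars mark adjusted permutation p under 0.05: Junb with Ier2 (0.90), Fos with Egr1 (0.88) and Ier2 with the T cell list (0.83) are among them.

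Different members also moved with different cell type markers among mice of the same group. Of 80 relations between the 10 genes and 8 marker lists, 16 passed (permutation test within groups, two-sided, adjusted over the 80), 15 positive and 1 negative. Of these 16, 7 passed among the 20 libraries, together with 2 others. Ier2 moved with the T cell list (r = 0.83, rho 0.81, permutation p = 3e-05, adjusted 0.00120, and 0.79 without the 2 farthest mice) and with the B cell list (r = 0.70, rho 0.66, permutation p = 0.000420, adjusted 0.00840). Junb did so less closely (r = 0.61 with the T cell list, rho 0.64, permutation p = 0.00234, adjusted 0.0234, and r = 0.58 with the B cell list, rho 0.57, permutation p = 0.00463, adjusted 0.0309). For Fos the same values were 0.16 and -0.01 and did not pass. The difference between these correlations was not tested. The T cell relations of Ier2 (r = 0.77, adjusted permutation p = 0.0173) and Junb (r = 0.67, 0.0444) also passed among the 20 libraries, and their B cell relations did not (r = 0.62, 0.0931 and r = 0.56, 0.156).

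Fosb moved the other way. It was positively related to the tumor and stroma list (r = 0.73, rho 0.75, permutation p = 0.000380, adjusted 0.00840, and 0.73 without the 2 farthest mice) and negatively to the T cell list (r = -0.64, rho -0.61, permutation p = 0.00168, adjusted 0.0192). The first of these also passed among the 20 libraries (r = 0.76, adjusted p = 0.0220 by permutation), and the second did not (r = -0.42, adjusted p = 0.356). No tumor and stroma relation passed for another member over 24 mice. That of Jun did among the 20 libraries (r = 0.59, rho 0.55, adjusted permutation p = 0.0342), against r = 0.32 over 24 mice.

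Atf3 and Dusp1 moved with markers of innate cells. Atf3 had r = 0.80 with the macrophage list (rho 0.63, permutation p = 0.00330, adjusted 0.0264, and 0.61 without the 2 farthest mice), r = 0.76 with the neutrophil list (rho 0.62, permutation p = 0.000900, adjusted 0.0124) and r = 0.65 with the NK list (rho 0.54, permutation p = 0.00715, adjusted 0.0431). Dusp1 had r = 0.80 with the NK list (rho 0.76, permutation p = 1e-05, adjusted 0.000800, and 0.66 without the 2 farthest mice) and r = 0.70 with the neutrophil list (rho 0.71, permutation p = 0.00813, adjusted 0.0434). Without the 2 farthest mice the last of these was 0.47, and that of Atf3 with the NK list 0.35. With the 20 libraries Atf3 kept its relation to the macrophage list (r = 0.72, adjusted permutation p = 0.0337) and lost those to the neutrophil list (r = 0.46, 0.243) and the NK list (r = 0.50, 0.0530). Both relations of Dusp1 passed there (r = 0.59 with the NK list, adjusted permutation p = 0.0132, and r = 0.57 with the neutrophil list, 0.0337).

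The other relations to marker lists that passed were those of Atf3 (r = 0.62, rho 0.62, adjusted permutation p = 0.0124) and Dusp1 (r = 0.55, rho 0.60, adjusted permutation p = 0.0431) with endothelial markers, and of Hspa1a with NK markers (r = 0.55, rho 0.60, adjusted permutation p = 0.0256). Junb (r = 0.56, rho 0.56, adjusted permutation p = 0.0451) and Hspa1b (r = 0.52, rho 0.46, adjusted permutation p = 0.0300) moved with the 3 red cell markers measured. The red cell relation of Junb passed among the 20 libraries too (r = 0.76, adjusted permutation p = 0.0132), as did that of Ier2 (r = 0.70, 0.0337). Those of Atf3 (0.207) and Dusp1 (0.310) with endothelial markers, of Hspa1a with NK markers (0.243) and of Hspa1b with red cell markers (0.0931) did not pass there by adjusted permutation p. None of the 16 relations over 24 mice involved Fos, Jun or Egr1, whose highest r with any list was 0.52 (Egr1 with the macrophage list). Their highest r among the 20 libraries was that of Jun with the tumor and stroma list, followed by Fos with the red cell markers (r = 0.56, adjusted permutation p = 0.0839). The points of each relation share a library, so its depth and composition enter both axes.

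**Figure D4:**
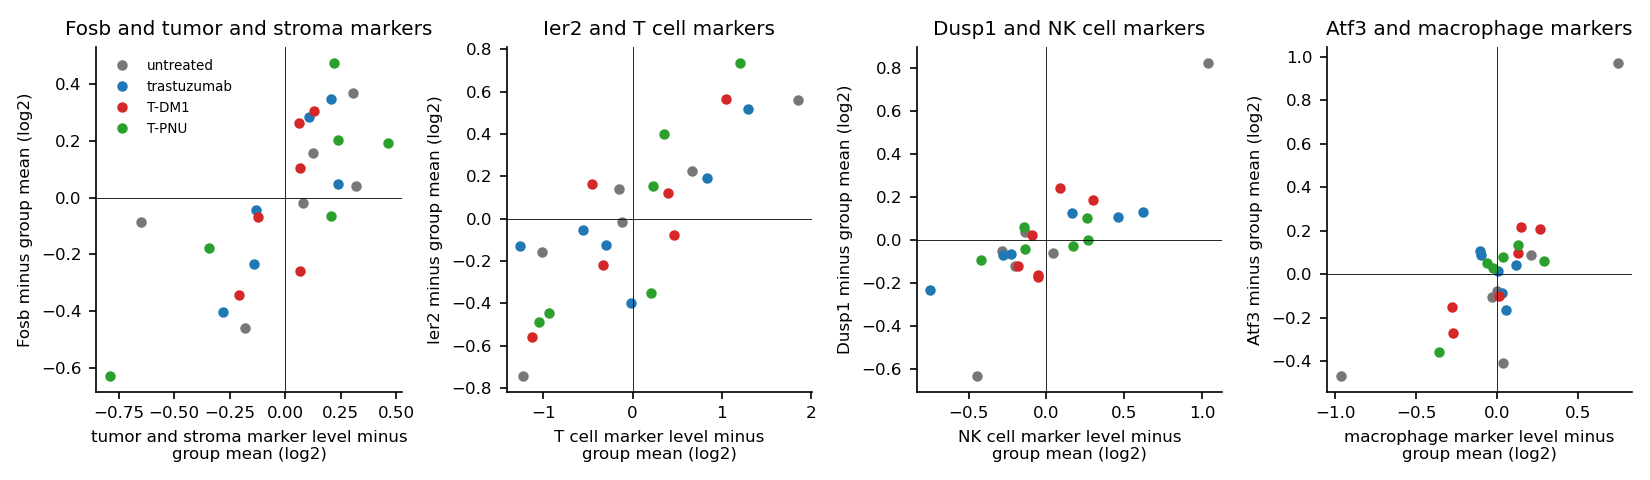
Log2 value of a gene minus its group mean (y axis) against the mean level of a marker list minus its group mean (x axis) in 24 mice, colored by group, for Fosb with tumor and stroma, Ier2 with T cell, Dusp1 with NK cell and Atf3 with macrophage markers. The r values were 0.73, 0.83, 0.80 and 0.80, and in the last pair of panels untreated C1 lies apart at the upper right.

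Related genes of the same pathways were counted from lists chosen for their function. Of the other 10 AP-1 and bZIP genes, 1 rose in T-DM1 against untreated mice, Jund (log2 0.72, SE 0.18, adjusted p = 0.0202), and none fell. Of 31 other immediate early genes 5 rose and none fell: Egr3 (log2 0.52), Ier3 (0.46), Klf4 (0.47), Myc (0.58) and Arc (0.60), with adjusted p between 0.0178 and 0.0411 by limma. None of the 8 other Dusp genes passed. Beside these counts, 6.27% of all genes were called in this comparison and 4.11% were called higher. The medians of the AP-1, immediate early and Dusp lists were 0.10, 0.19 and 0.31, beside -0.02 over all genes.

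Of 20 other heat shock genes 2 rose in T-DM1 against untreated mice, the small heat shock protein genes Hspb1 (log2 0.99, SE 0.29, adjusted p = 0.0427) and Cryab (log2 0.86, SE 0.24, adjusted p = 0.0367), and the median of the list was -0.14. Of 14 upstream regulators 2 rose, Srf (log2 0.33) and Hsf1 (log2 0.35), both with an adjusted p of 0.0247 by limma, and the median of the list was -0.09. The counts of heat shock genes and upstream regulators stand beside the same 6.27% of all genes called and 4.11% called higher. Of these 10 related genes only Jund passed among the 20 libraries (0.0494), where 2.01% of all genes did. The others had adjusted p between 0.0869 and 0.159 there. All 10 lost their call without T-DM1 E3, and the largest adjusted p with a mouse left out ran from 0.0560 for Egr3 to 0.107 for Arc. Against untreated mice, none of these 5 lists held a called gene in T-PNU or trastuzumab mice over 24 mice (limma), where 0.188% and 0.259% of all genes were called.

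The counts for T-PNU differed among the 20 libraries. Against untreated mice 17 of the 31 other immediate early genes passed there, 14 higher and 3 lower, where 31.1% of all genes did. Those of smallest adjusted p were Zfp36 (log2 0.54, adjusted p = 0.00388 by limma), which encodes an mRNA-destabilizing protein, Rgs2 (0.89, 0.00422), Zfp36l1 (0.62, 0.00525), Btg2 (0.85, 0.0059) and Klf2 (0.86, 0.0085). Of the AP-1 and bZIP genes 4 passed (Batf3, Fosl2 and Jund higher, Fosl1 lower), of the Dusp genes 2 (Dusp2 higher, Dusp6 lower), of the heat shock genes 7 (1 higher, 6 lower) and of the upstream regulators 4 (3 higher, 1 lower). Against trastuzumab none of these genes passed in T-PNU mice over 24 mice, and among the 20 libraries 13 immediate early, 1 AP-1, 4 Dusp, 10 heat shock and 3 upstream genes did, where 28% of all genes passed. Trastuzumab against untreated mice held no called gene of these lists among the 20 libraries either. Markers moved here too: among the 20 libraries all 10 T cell and all 5 NK cell markers rose in T-PNU against untreated mice, and 6 of the 10 tumor and stroma markers fell and 1, Epcam, rose. The part of these markers was not tested.

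In T-PNU against T-DM1 mice, 3 of the 10 AP-1 and bZIP genes fell: Fosl1 (log2 -1.03, SE 0.24, adjusted p = 0.00473), Jdp2 (-0.47, adjusted p = 0.0186) and Atf4 (-0.16, adjusted p = 0.0267). Atf4 was also the 1 gene of these lists that passed between T-DM1 and trastuzumab mice (log2 0.25, adjusted p = 0.0272). It lost the first call without T-PNU H1 or C2 or T-DM1 F3 (up to 0.0713) and the second without trastuzumab E2, H2 or B3 or T-DM1 D3, E3 or F3 (up to 0.0863), and among the 20 libraries the second was lost (0.0755). Of 31 other immediate early genes 6 fell and 3 rose. Those of smallest adjusted p all fell, namely Myc (log2 -0.89, adjusted p = 0.00134), Arc (-0.77, 0.00354), Ier3 (-0.53, 0.00423), Cyr61 (-1.05, 0.00506) and Sgk1 (-0.41, 0.00661). Dusp6, which encodes a phosphatase specific to ERK, fell (log2 -0.52, adjusted p = 0.00226), while the other 7 Dusp genes did not pass.

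Of the 20 other heat shock genes 7 fell and none rose in T-PNU against T-DM1 mice. The largest fall was that of Hspb1 (log2 -1.72, SE 0.29, adjusted p = 0.00104), followed by Hspb8 (-1.03, 0.00529), Cryab (-0.98, 0.00626), the HSP40 gene Dnajb1 (-0.57, 0.0138) and the cochaperone gene Bag3 (-0.44, 0.0119). Hspb1 and Cryab are expressed in epithelial and muscle-like cells as well as under stress, and the tumor and stroma markers fell in the same mice, whose part was not tested. Hsf1, below, lost its call without T-PNU H1 (0.0589). Of 14 upstream regulators 3 fell and 4 rose, among them Srf (log2 -0.30, adjusted p = 0.0129), Hsf1 (-0.29, 0.0187), Mapk9 (0.32, 0.00284), Mapk14 (0.37, 0.00561) and Mkl2 (0.23, 0.0176). Beside these counts stand 17.4% of all genes lower and 12.4% higher. For the 20 libraries 4 AP-1, 15 immediate early, 4 Dusp, 10 heat shock and 7 upstream genes passed in this comparison, where 39.9% of all genes did, and every gene of these lists that passed over 24 mice was among them.

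**Figure D5:**
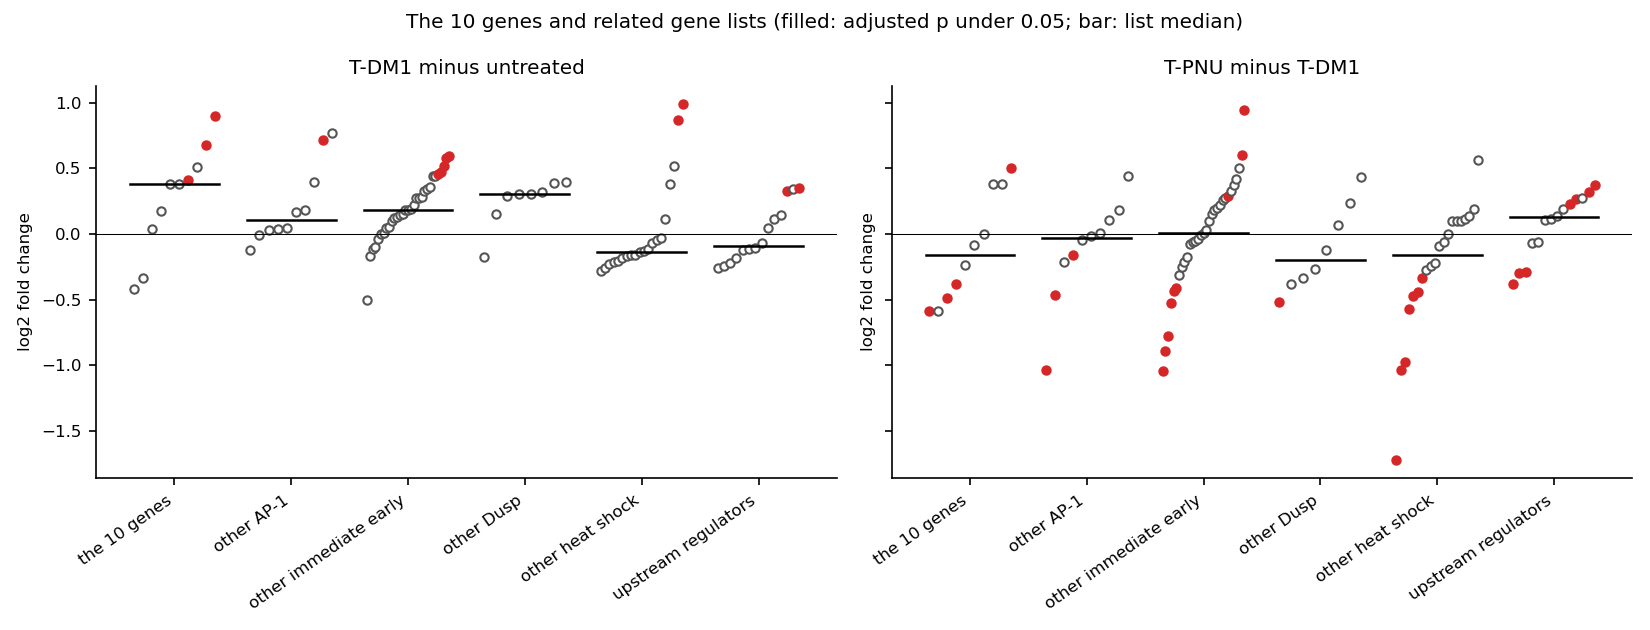
Log2 fold change (y axis) of each gene of the 10 genes and of 5 related lists (x axis), in T-DM1 minus untreated (left) and T-PNU minus T-DM1 (right), with bars at the list medians and filled points at an adjusted p under 0.05. The lowest point is Hspb1 at -1.72 in T-PNU minus T-DM1.

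Genes whose pattern over the 24 mice was most like that of Fos were looked for among 8408 named genes above the median level. They were Ier5 (r = 0.86), a further immediate early gene, then Slc3a2 (0.81), an amino acid transporter subunit, Plekhn1 (0.80), Sertad1 (0.79) and Cyp4f18 (0.78). For Hspa1a they were Pde1b (0.76), a phosphodiesterase gene, D430042O09Rik (0.73), Spg11 (0.72), Ppp1r3b (0.71) and Fam46c (0.71). With group means removed, Ier5 kept r = 0.79 to Fos and Pde1b r = 0.74 to Hspa1a. No heat shock gene was among the 5 candidates most like Hspa1a, and Hspa1b, as a member, was not a candidate.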

How the data were processed

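RNA of bead-enriched CD45+ cells from 24 tumors was sequenced by the authors (TruSeq stranded mRNA, 200 ng input, single reads of 81 bases). Reads were aligned with STAR (version 2.4.2a), counted per gene and strand with featureCounts (Subread 1.5.0) and passed to DESeq2, on mm10 per the labels, and genes with few reads were removed. The deposited values are log2 normalized values whose exact transformation is not given in the sources used here, and no counts were used. Group means were compared with limma (version 3.58.1, R 4.3.3) in 1 fit of 4 groups over 16996 genes and 24 mice, with moderated variances and a trend, no pseudocount (0 added) and no filter, and p-values were Benjamini-Hochberg adjusted over all genes. The study analysed counts, and the log2 values called for limma in its place. A slope per mouse within groups was fitted in the same way. Relations used group-centred values and permutation within groups (NumPy 2.4.6, SciPy 1.17.1). The scripts were tested on simulated data. The members, the gene lists and the tests were chosen with earlier results of these data known. Named related genes were those called, up to 5 of smallest adjusted p per list and comparison. Marker list levels are means of log2 deviations, over the genes measured (all of each list except 3 of 5 red cell genes). Mice were separate animals, and no replicate numbers join the groups. Alternatives left out mice, changed the normalization, the genes tested, the variance model or the sample weights.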

Additional observations from a re-analysis of the deposited data

Results flagged for a closer look

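Of 40 sets of 6 values (10 genes in 4 groups), 1 held a sample apart from the other 5 by Dixon's ratio (0.782, above the critical value for 6 samples). Atf3 in T-PNU mouse C2 was 13.84, the lowest of its group, and the nearest of the other 5 was 14.23. Chance flags about 1 in 20 such sets.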

How the results depend on the processing

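Counts of the 10 genes called moved as follows. Across the 4 groups 3 were called, 6 among the 20 libraries, 7 with sample weights, and 1 to 5 when a mouse was left out (1 without T-PNU H1 or T-DM1 D3, E3 or F3, and 5 without untreated C1). In T-PNU minus untreated the count was 0, then 2 among the 20 libraries, 2 with sample weights, and 0 to 3 without a mouse (3 without untreated C1, namely Fos, Dusp1 and Atf3). In T-DM1 minus untreated it was 3, then 1 among the 20 libraries, 6 with sample weights, 1 when the other groups were left out of the fit, and 0 to 4 without a mouse (0 without T-DM1 D3, E3 or F3, and 4 without H3). In T-PNU minus trastuzumab it was 0, then 3 among the 20 libraries, 3 with sample weights, and 0 to 1 without a mouse (1 without untreated C1). In T-PNU minus T-DM1 it was 4, and 0 to 5 without a mouse (0 without T-PNU H1 or T-DM1 E3). In T-DM1 minus trastuzumab it was 0, then 2 with sample weights, 2 with the 2 groups alone, and 0 to 2 without a mouse (2 without untreated C1). Trastuzumab minus untreated and the mouse order stayed at 0 under each alternative run. Relations between members (10) and to marker lists (16) gave 8 and 9 among the 20 libraries. Shares of all genes called are given above for the main fit and the 20 libraries. For sample weights, for the compared groups alone and for fits without a mouse, no such share is given. The counts under those settings have no background beside them, so their shifts cannot be told from a shift in calls over all genes. The cause of the shifts in this paragraph was not tested.

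The 58 log2 differences of single genes gave 1739 alternative values, counting each gene and setting once. None had the other sign, with 1567 on the same side of the threshold, 134 no longer past it and 38 newly past it. All 58 had been chosen in the same data for a small unadjusted p or a call. An unchanged sign therefore says little about them. Quantile normalization moved the median of all genes by less than 0.1. The alternative by position order equals that by mouse number and gave no separate value. No paired analysis was possible because the groups share no replicate numbers. Depth is unknown, so the precision of single values could not be given.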

Other observations

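The difference between Hspa1b and Hspa1a within a mouse was looked at after the values were seen, and is therefore given with no test. On the log2 scale Hspa1b minus Hspa1a ran from 1.14 to 1.71 in T-DM1 mice (mean 1.46 ± 0.20, SD, n = 6) and from 0.07 to 0.66 in T-PNU mice (mean 0.48 ± 0.22). No T-DM1 mouse overlapped a T-PNU mouse. These agents differ in dose as well as in payload, and other pairs of genes were not examined in this way. Trastuzumab (0.57 to 1.63, mean 0.98 ± 0.37) and untreated mice (0.23 to 1.15, mean 0.87 ± 0.35) overlapped both. The difference is of log2 values that are not scaled by gene length, and more than 50% of read-length stretches are shared by these genes, so its size is uncertain. The tumor and stroma marker level was also apart in these groups (0.30 to 0.64 in T-DM1 and -1.20 to 0.04 in T-PNU mice), and its part was not tested.

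Of the 8 reference genes used as a steady set, which include Ptprc, none passed in T-DM1 or T-PNU against untreated mice over 24 mice (limma, 6.27% and 0.188% of all genes called), and their median log2 differences were -0.03 and -0.01. Between T-PNU and T-DM1 mice Ptprc rose (log2 0.76) and Gapdh fell (log2 -0.53), and the other 6 did not pass. Among the 20 libraries Ptprc rose and Ppia and Gapdh fell in T-PNU against untreated mice, where 31.1% of all genes passed.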
